A study of Mus musculus with 12 samples.

Results

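The Ras association domain family (Rassf) genes and the MST kinases were followed in mouse bone marrow neutrophils treated with conjugated bile acids. The 9 genes were taken by name from the 29737 genes of the count table. They were Rassf1 to Rassf7 and the kinase genes Stk3 (MST2) and Stk4 (MST1), and all 9 were among the 16761 genes that passed a filter on low counts. Rassf6 was selected on its CPM values, which were higher with Tβ-MCA in these samples, so its values with Tβ-MCA are described without a test. The choice also rested on the samples that Tβ-MCA was compared with. The p-values of Rassf6 between the other groups are therefore not independent of it. The other 8 genes were taken as its paralogs and kinase partners and were tested.

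Wild-type neutrophils, described in the labels as Ly6G-positive bone marrow cells isolated with magnetic beads, were cultured in RPMI medium with serum for 24 h. The 4 groups of 3 samples received PBS as the vehicle, 200 μM TCA, 200 μM GCA or Tβ-MCA, so that 12 samples were compared. The dose of Tβ-MCA is 10 μM in the labels, whereas the methods of the study give every bile acid the dose used for TCA, so the dose of this group is uncertain. TCA and Tβ-MCA are conjugated with taurine and GCA with glycine. The methods describe young female C57BL/6 mice and an enrichment kit, and no source used here says whether the samples of a group came from separate mice. The p-values therefore measure the spread between these samples, which may be technical.

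Rassf proteins are scaffolds that have no enzymatic activity of their own. Through a Ras association domain they bind small GTPases of the RAS and RAP families. Rassf1 to Rassf6 also carry a C-terminal SARAH domain, a helix through which they bind the SARAH domain of the kinases MST1 and MST2, the core kinases of the Hippo pathway. Rassf7 to Rassf10 have the Ras association domain near the N terminus and lack the SARAH domain. In leukocytes, Rassf5 with MST1 is known for linking RAP1 to the integrin LFA-1 in adhesion and migration. Hippo signalling restrains the coactivators YAP and TAZ in epithelial tissues.

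A pair of libraries stood apart from the others of their groups. A score was calculated over 673 genes, none of them a Rassf or MST gene. On it the PBS mean is 0 and the mean of Tβ-MCA replicates 3 and 4 is 1. The genes had an adjusted p under 0.05 by edgeR and a fold of at least 2 in either direction against PBS. That fit left out Tβ-MCA replicate 5, so replicates 3 and 4 lie near 1 by construction. The choice also favours a lower score for replicate 5. Tβ-MCA replicate 5 reached 0.27 on the score, and GCA replicate 4 reached 0.34 against 0.10 and 0.06 for the other GCA samples. The changes of Rassf1, Rassf4, Rassf5 and Rassf6 with Tβ-MCA against PBS are given with and without Tβ-MCA replicate 5. Those of Rassf6 with GCA against PBS and against TCA are given with and without GCA replicate 4. Most other estimates are given with all samples only. Total counts were between 32757389 and 41375925 per sample. A limit of 3 counts then equals 0.0725 to 0.0931 CPM, the counts scaled to library size that are used here for levels within a gene, and it covers counting error only. The 12 neutrophil marker genes were detected in every sample. They summed to 48718 to 60421 CPM with PBS and to 39093 to 44494 CPM with Tβ-MCA, without overlap, and 4 of the 12 fell in the edgeR test against PBS, where 3.18% of all genes did. The 12 monocyte and macrophage markers summed to 2199 to 2346 CPM with PBS and to 1235 to 2018 CPM with Tβ-MCA. The 7 eosinophil markers summed to 155 to 273 CPM with PBS and to 60.2 to 139 CPM with Tβ-MCA, and the T and NK cell markers stayed between 12.03 and 14.7 CPM in all groups, with Cd3g, Nkg7, Klrb1c and Gzma at 0 in some samples. The part of these shifts in the results was not tested.

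Promoter windows of the genes on which the results turn are shown first. These are Rassf6, Rassf1 and Rassf5. They are RefSeq sequences on GRCm38.p6 that run from 250 bases before to 50 bases after a transcript start, and 8 windows of 7 of the 9 genes were matched by symbol. Capitals mark matches on either strand to any of 8 short motifs, which were AP-1 (TGANTCA), CRE (TGACGTCA), TEAD (GGAATG), PU.1 (GAGGAAGT), a nuclear receptor half-site (AGGTCA), an E-box (CACGTG), the CCAAT box (CCAAT) and the GC box (GGGCGG). The windows lie at chr5:90640478-90640777 on the minus strand for Rassf6, at chr9:107551305-107551604 and chr9:107554333-107554632 on the plus strand for the upstream and downstream starts of Rassf1, and at chr1:131200136-131200435 on the minus strand for Rassf5.
Rassf6: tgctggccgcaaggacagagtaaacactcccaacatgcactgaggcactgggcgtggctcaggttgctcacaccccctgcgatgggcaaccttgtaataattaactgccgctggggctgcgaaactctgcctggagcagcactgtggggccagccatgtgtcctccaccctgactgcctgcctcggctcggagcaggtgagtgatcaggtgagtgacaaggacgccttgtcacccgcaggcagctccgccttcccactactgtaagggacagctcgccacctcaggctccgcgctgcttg
Rassf1 upstream start: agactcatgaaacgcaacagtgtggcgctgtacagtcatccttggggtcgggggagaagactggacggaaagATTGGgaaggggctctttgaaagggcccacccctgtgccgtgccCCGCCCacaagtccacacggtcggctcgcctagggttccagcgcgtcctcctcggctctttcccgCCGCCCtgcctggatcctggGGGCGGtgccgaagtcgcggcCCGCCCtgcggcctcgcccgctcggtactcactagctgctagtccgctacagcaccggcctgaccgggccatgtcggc
Rassf1 downstream start: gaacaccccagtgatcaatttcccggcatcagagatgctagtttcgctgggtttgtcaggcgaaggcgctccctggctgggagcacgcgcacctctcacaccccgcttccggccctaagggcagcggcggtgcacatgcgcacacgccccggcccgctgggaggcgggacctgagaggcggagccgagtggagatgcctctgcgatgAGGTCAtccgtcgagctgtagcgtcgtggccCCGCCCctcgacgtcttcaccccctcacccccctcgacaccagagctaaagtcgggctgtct
Rassf5: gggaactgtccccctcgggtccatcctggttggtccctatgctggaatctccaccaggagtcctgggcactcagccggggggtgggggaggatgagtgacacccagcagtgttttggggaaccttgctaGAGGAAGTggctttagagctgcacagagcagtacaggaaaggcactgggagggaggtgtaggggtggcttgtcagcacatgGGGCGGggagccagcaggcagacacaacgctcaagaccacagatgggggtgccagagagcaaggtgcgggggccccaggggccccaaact

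The Rassf6 window held none of the 8 motifs. It contained 13 CpG dinucleotides against a median of 7 over all 32851 mouse windows, and 62.1% of the windows had fewer. Each Rassf1 window had 27 CpG dinucleotides, which 84.5% of the windows did not reach. The Rassf5 window had 5 CpG dinucleotides, a GC box and a PU.1 match. PU.1 matches were found in 3.20% of all windows, GC boxes in 35.7%, CCAAT boxes in 37.4% and half-sites in 16.3%. The Rassf5 window lies within the gene, which the deposited table places at chr1:131176410-131245258 on the minus strand, and so belongs to an internal start. A match is a description of the letters and not a measured binding site.

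The levels of the 9 genes per exon length were spread over more than 2 orders of magnitude. Levels between genes are compared as RPKM, the deposited reads per kilobase of exon, scaled to the counted reads of the sample. With PBS, Rassf3 was the highest with 117.0 ± 2.8 RPKM (SD, n = 3). Rassf5 followed with 100.9 ± 4.4 RPKM and Stk4 with 92.2 ± 2.2 RPKM, so the integrin-linked scaffold and its kinase were both abundant. Rassf2, which binds MST kinases and stabilizes them, was at 35.3 ± 1.1 RPKM.

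A lower tier was formed by Rassf4 with 8.76 ± 0.64 RPKM, Rassf1 with 4.49 ± 0.27 RPKM and Stk3 with 4.01 ± 0.15 RPKM. Rassf7, the one N-terminal family gene of the set, was at 0.830 ± 0.126 RPKM. Rassf6 was the lowest with 0.243 ± 0.102 RPKM. No gene overlapped the next in this order across the 3 PBS samples. With Tβ-MCA, 3 pairs of neighbours in this order overlapped. Rassf6 reached 0.771 to 1.98 RPKM and overlapped Rassf7, which lay between 0.945 and 1.19 RPKM. Rassf5 with 85.1 to 90.5 RPKM overlapped Stk4 with 87.6 to 91.4 RPKM, whose mean was then the higher, and Rassf1 with 3.16 to 3.95 RPKM overlapped Stk3 with 3.38 to 3.64 RPKM. Over all 12 samples the highest Rassf6 sample was 15.8 times the lowest, while this ratio was at most 2.08 for each of the other 8 genes. The highest sample is one of the Tβ-MCA samples that chose Rassf6, so its wide range follows from the choice. Rassf10, a family gene outside the 9 with only 2 to 22 reads per sample, also had a wide range, from 0.0138 to 0.192 RPKM.

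**Figure D1:**
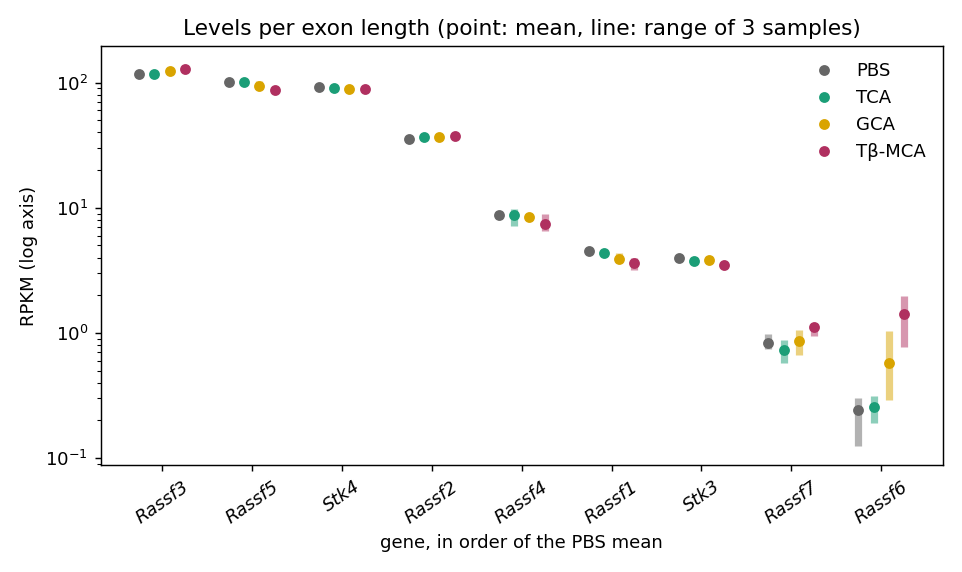
RPKM of the 9 genes on a log axis, in order of the PBS mean, where points are group means and vertical lines the range of the 3 samples of a group. Rassf3, Rassf5 and Stk4 lie near 100 RPKM, and Rassf6 is the lowest with PBS at 0.243 RPKM.

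Rassf6 had few reads with PBS and with TCA. Its range over the samples was the widest of the 9 genes, with the upper end set by the Tβ-MCA values that chose it. The gene lies at chr5:90603076-90640657 on the minus strand of GRCm38, and no other gene of the table overlaps it. PBS replicates 3, 5 and 6 had 0.545, 1.29 and 1.29 CPM, from 19, 44 and 48 reads. With TCA, replicates 3, 4 and 5 had 0.837, 1.33 and 1.11 CPM, which overlapped the PBS values. The Tβ-MCA samples had 6.37, 8.18 and 3.24 CPM, from 213, 303 and 121 reads.

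All 3 Tβ-MCA samples were above all PBS and TCA samples, and replicate 5 was the lowest of them. Of all genes tested, 14.1% were higher with Tβ-MCA than with PBS without overlap. The means were 1.05 ± 0.43 CPM with PBS and 5.93 ± 2.50 CPM with Tβ-MCA (SD, n = 3). The fitted log2 fold change was 2.50 ± 0.50 (SE), a fold of 5.65, and it was 2.79 without Tβ-MCA replicate 5. These values chose the gene and are given without a test.

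With GCA, replicates 3, 4 and 5 had 1.27, 4.33 and 1.71 CPM. Replicate 4, one of the libraries that stood apart, was above Tβ-MCA replicate 5, and the other GCA samples were close to PBS. The log2 fold change of Rassf6 with GCA against PBS was 1.21 ± 0.52, with an adjusted p of 0.999 by edgeR (0.039 unadjusted). It fell to 0.51 without GCA replicate 4. TCA against PBS gave 0.07 ± 0.55 by edgeR, with an adjusted p of 0.9998. The 95% interval was from -1.14 to 1.29, so changes within it were not excluded.

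GCA and TCA were given at the same dose and time and carry a different amino acid. Rassf6 differed between them by a log2 fold change of 1.14, with a 95% interval from 0.01 to 2.27, with an adjusted p of 0.9998 by edgeR (0.048 unadjusted). Without GCA replicate 4 the difference was 0.44. Whether the GCA differences of Rassf6 passed the test depended on the filter, and these p-values are descriptions because the samples also took part in the choice of Rassf6. In a fit of all 29737 genes without a filter on low counts, the adjusted p by edgeR was 0.0007 against PBS and 0.0016 against TCA, at log2 fold changes of 1.21 and 1.14 and with SEs of 0.24 in place of 0.52 and 0.51, and 0.121% and 0.141% of all genes passed. At the study's cutoffs, an unadjusted p of 0.05 and a fold of 2, Rassf6 also passed in both comparisons, with folds of 2.32 and 2.20. Both folds were smaller without GCA replicate 4. An unadjusted p under 0.05 alone was found for 3.53% of all genes against PBS and for 2.46% against TCA. The share that also reached the fold is not given here.

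**Figure D2:**
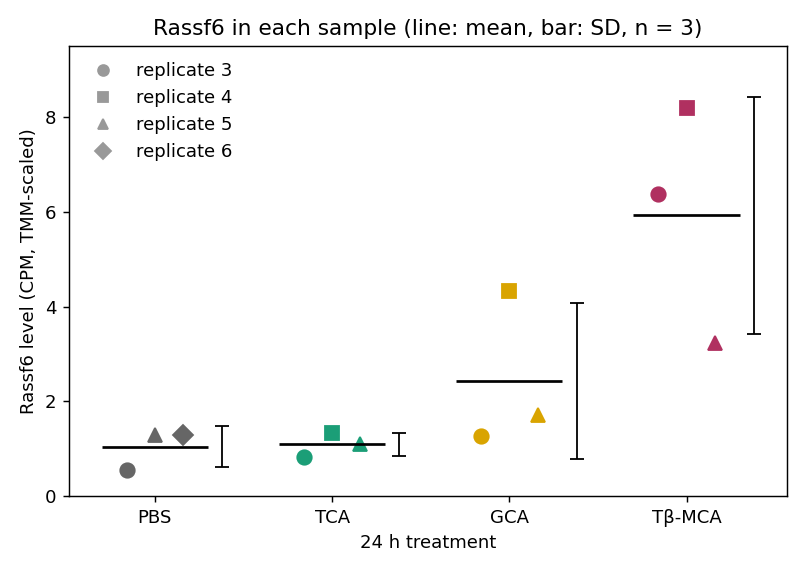
Rassf6 level in CPM (y axis, from 0) in each of the 12 samples by 24 h treatment, with symbols for the replicate number, lines for group means and bars for the SD. The Tβ-MCA samples lie between 3.24 and 8.18 CPM, and GCA replicate 4 with 4.33 CPM is apart from the other GCA samples.

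Of the C-terminal paralogs, Rassf1 and Rassf5 fell with Tβ-MCA, and Rassf2, Rassf3 and Rassf4 did not pass the test. Rassf1, a scaffold known for microtubule binding and for coupling to MST kinases, had 25.9, 28.3 and 25.4 CPM with PBS and 18.1, 21.4 and 22.8 CPM with Tβ-MCA. Every Tβ-MCA sample was below every PBS sample. The level fell by 21.7%, with a log2 fold change of -0.35 ± 0.10 and an adjusted p of 0.043. Without Tβ-MCA replicate 5 it was -0.42 with an adjusted p of 0.012.

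Rassf5 had 395, 407 and 422 CPM with PBS and 333, 336 and 357 CPM with Tβ-MCA. The groups did not overlap here either. The level fell by 16.1%, a log2 fold change of -0.25 ± 0.07 with an adjusted p of 0.034. Without Tβ-MCA replicate 5 these were -0.29 and 0.013. Rassf1 and Rassf5 were the 2 of the 8 genes other than Rassf6 that passed the test against PBS. Over all genes tested 7.62% passed it, 3.18% with a lower and 4.44% with a higher level.

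Both calls were close to the threshold. The adjusted p of Rassf1 was between 0.0115 and 0.189 over 18 alternative fits and under 0.05 in 8 of them, and that of Rassf5 was between 0.0065 and 0.149 and under 0.05 in 9. Both calls were lost with total library size, with the 2 groups fitted alone, and without any one of PBS replicates 3, 5 and 6, TCA replicates 4 and 5 and Tβ-MCA replicates 3 and 4, and the call of Rassf1 was also lost without TCA replicate 3. The log2 fold changes stayed below 0 in all of these fits, from -0.42 to -0.26 for Rassf1 and from -0.29 to -0.21 for Rassf5. Rassf1 overlaps Gm9917 and Rassf5 overlaps Eif2d and Gm17796 on the opposite strand, and the strand setting of the counting is not given in the sources used here.

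Rassf4, a further C-terminal gene, had 77.1, 80.4 and 87.2 CPM with PBS and 59.4, 62.5 and 80.7 CPM with Tβ-MCA. Tβ-MCA replicate 5 lay within the PBS range and the other Tβ-MCA samples below it. The log2 fold change was -0.27 ± 0.12 with an adjusted p of 0.159, and -0.42 with an adjusted p of 0.0089 without Tβ-MCA replicate 5, a fit in which 18.0% of all genes passed the test. Without a filter on low counts the adjusted p was 0.024, and 8.09% of all genes passed. In the same samples the monocyte and macrophage markers summed to 1235, 1459 and 2018 CPM, in the order of the replicate numbers, and the sample with the highest Rassf4 also had the highest sum. The same sample had the highest eosinophil and neutrophil marker sums of the group, 139 and 44494 CPM. With GCA, replicate 5 also had both the highest Rassf4 and the highest monocyte and macrophage sum. This did not hold with PBS, where replicate 6 had the highest Rassf4 and replicate 5 the highest sum. Nor did it hold with TCA, where these were replicates 5 and 4. None of the 12 monocyte and macrophage markers passed the test against PBS by edgeR, 6 had an unadjusted p under 0.05 (24.9% of all genes tested), and all 12 had a log2 fold change below 0. The part of these markers in the Rassf4 values was not tested, and fewer cells of a type and less RNA per cell cannot be told apart in such bulk samples.

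Rassf2 and Rassf3 had nearly the same level in all groups. Rassf2 was between 410 and 477 CPM and Rassf3 between 384 and 465 CPM over the 12 samples, and their groups overlapped. With Tβ-MCA the log2 fold change of Rassf2 was 0.04 with a 95% interval from -0.09 to 0.17, and that of Rassf3 was 0.08 with an interval from -0.07 to 0.23. The N-terminal gene Rassf7 had 1.64, 2.12 and 1.67 CPM with PBS and 2.51, 2.48 and 2.01 CPM with Tβ-MCA. Its log2 fold change was 0.37 ± 0.22 with an adjusted p of 0.311.

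The MST kinases were slightly lower with Tβ-MCA, by differences that did not pass the test. Stk3 had 13.4, 12.6 and 13.4 CPM with PBS and 10.7, 10.9 and 11.6 CPM with Tβ-MCA, and Stk4 had 567, 533 and 542 CPM against 503, 506 and 528 CPM. The groups did not overlap for either kinase. The log2 fold change of Stk3 was -0.24 ± 0.10 with an adjusted p of 0.129. For Stk4 it was -0.09 ± 0.06 with an adjusted p of 0.311. Together with Rassf1 and Rassf5, 4 of the 8 genes other than Rassf6 lay below the PBS range in all Tβ-MCA samples, while this held for 12.8% of all genes tested, and 27.0% did not overlap in one direction or the other.

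**Figure D3:**
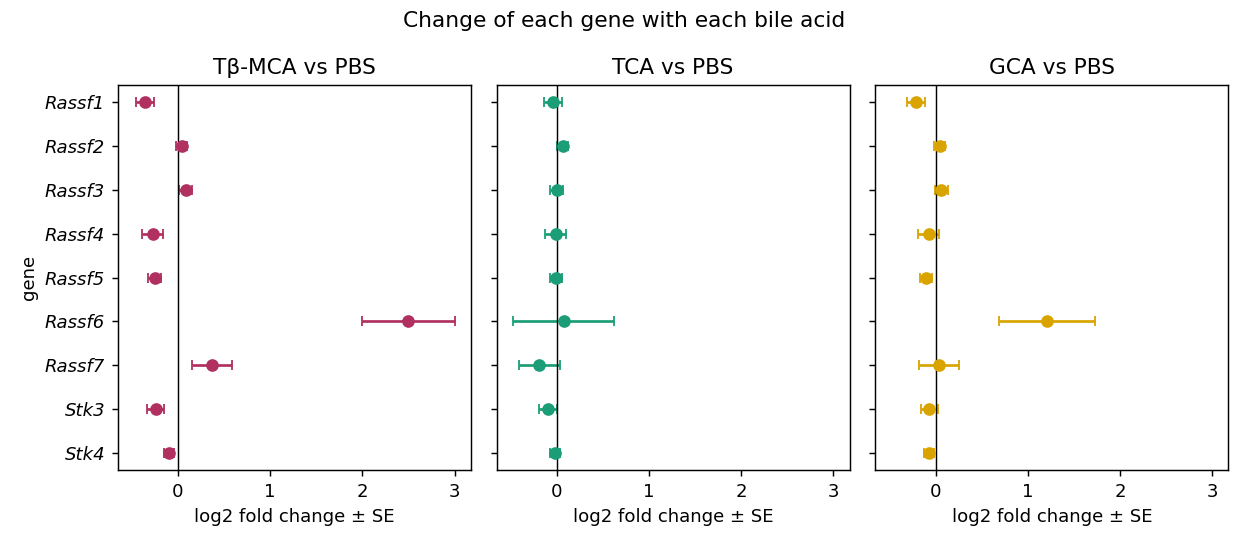
Log2 fold change against PBS (x axis) of the 9 genes with Tβ-MCA, TCA and GCA, where points are edgeR estimates and bars ± SE. Rassf6 stands at 2.50 with Tβ-MCA and at 1.21 with GCA, and the other 8 genes lie between -0.35 and 0.37 in the 3 panels.

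None of the 8 genes passed the test by edgeR with TCA or with GCA, and none had an unadjusted p under 0.05 or was called by DESeq2. Over all genes tested 0.0% passed in either comparison, and an unadjusted p under 0.05 was found for 3.26% with TCA and 3.53% with GCA. The log2 fold changes were between -0.19 for Rassf7 and 0.06 for Rassf2 with TCA, and between -0.21 for Rassf1 and 0.06 for Rassf3 with GCA. No gene of the 8 was free of overlap with PBS in either comparison, against 9.67% of all genes with TCA and 9.55% with GCA. Between GCA and TCA the 8 genes differed by -0.16 for Rassf1 to 0.23 for Rassf7, none passed the test, none had an unadjusted p under 0.05 and none was called by DESeq2, with 0.0% of all genes called and 2.46% at an unadjusted p under 0.05. The 95% intervals of that difference were from -0.37 to 0.05 for Rassf1 and from -0.24 to 0.70 for Rassf7.

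Tβ-MCA was also set against the other bile acids, with the reservation that its dose may differ from theirs. Against TCA, which is also a taurine conjugate, 0 of the 8 genes passed the test, with 3.51% of all genes called. An unadjusted p under 0.05 was found for 4 of the 8 and for 22.2% of all genes, and DESeq2 called 2 of the 8. With the replicate number as a block, 3 of the 8 passed by edgeR, which were Rassf1, Rassf4 and Rassf5 with adjusted p of 0.022, 0.043 and 0.0091. The shares of all genes called by DESeq2 and with the block are not given here. These counts of 2 and 3 therefore cannot be set against them. In the edgeR fit without the block, the nearest were Rassf5 with a log2 fold change of -0.24 and an adjusted p of 0.054, and Rassf1 with -0.31 and 0.085. Against GCA 0 of the 8 passed, as did 0.0% of all genes, 1 had an unadjusted p under 0.05 (15.5% of all genes) and DESeq2 called 0. The log2 fold changes in that comparison were -0.15 for Rassf5 and -0.14 for Rassf1. Rassf6 had 2.42 against TCA and 1.29 against GCA, given without a test.

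A pair of further N-terminal family genes were in the table. Rassf8 was at 17.2 to 22.3 CPM in the 12 samples and had a log2 fold change of -0.01 with Tβ-MCA. Rassf10 had only 2 to 22 reads per sample, and its log2 fold change of 0.64 ± 0.55 with Tβ-MCA had an adjusted p of 0.512.

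Of the pathway genes around the Rassf and MST genes, 4 of 73 passed the test with Tβ-MCA, where 7.62% of all genes did. Lists of Hippo regulators, kinases, transcription factors and targets, of the STRIPAK phosphatase complex that acts on MST kinases, of RAS and RAP GTPases and of Rassf binding partners held 86 genes, of which 82 were in the table and 73 were tested. With Tβ-MCA 2 rose and 2 fell, and the median log2 fold change was -0.03 against 0.00 for all genes tested. With TCA and with GCA 0 of the 73 passed by edgeR or DESeq2, and 2 and 1 had an unadjusted p under 0.05. Over all genes 0.0% passed, and 3.26% and 3.53% had an unadjusted p under 0.05.

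The 4 genes belonged to 3 lists. Map4k1, a hematopoietic kinase of the family that can act upstream of the Hippo kinases LATS, had 25.5, 24.7 and 23.1 CPM with PBS and 15.5, 15.9 and 20.5 CPM with Tβ-MCA, a log2 fold change of -0.50 (adjusted p = 0.021). Rap2b, a small GTPase of the RAP family, had 44.8, 46.7 and 50.5 CPM and then 87.5, 74.9 and 58.4 CPM, with 0.63 and 0.021. In both genes the groups did not overlap, and Tβ-MCA replicate 5 lay nearest to PBS.

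Moap1, which binds Rassf1 and activates Bax in apoptosis, had 9.78, 9.09 and 10.0 CPM with PBS and 15.8, 13.8 and 10.7 CPM with Tβ-MCA. Its log2 fold change was 0.48 with an adjusted p of 0.032. Itgal, the alpha chain of LFA-1 and the integrin downstream of Rassf5, had 307, 271 and 250.3 CPM and then 207, 194 and 250.4 CPM. It fell by 21.4%, with a log2 fold change of -0.35 and an adjusted p of 0.042, although Tβ-MCA replicate 5 was level with the lowest PBS sample. The calls of these 4 genes were lost with the 2 groups fitted alone and without any one of PBS replicates 3 and 5 and Tβ-MCA replicates 3 and 4, and those of Moap1 and Itgal also without PBS replicate 6. The call of Itgal was also lost without any one of the 3 TCA samples or without GCA replicate 5.

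The remaining lists had no call with Tβ-MCA by edgeR, and their counts at an unadjusted p under 0.05 stand against 24.9% of all genes. The 7 Hippo adaptors and downstream kinases had log2 fold changes between -0.18 and 0.18, and 1 of them had an unadjusted p under 0.05. Of the 17 STRIPAK genes tested 1 had an unadjusted p under 0.05, and the median log2 fold change was -0.04. Of 10 target genes of YAP and TAZ 6 were tested, between -0.44 and 0.14, and 1 of them had an unadjusted p under 0.05. The 5 Hippo transcription factors tested lay between -1.04 and 0.20, and 2 of them had an unadjusted p under 0.05. DESeq2 called 9 genes over all lists. The share of all genes that DESeq2 called is not given here, so the 9 cannot be set against it.

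Rassf6 lies between the albumin genes and a chemokine cluster. Within 500 kb, 19 other genes had a count. From lower to higher coordinates these were Eif5al3-ps, Cox18, Ankrd17, Gm9958, Gm43363, Alb, Afp and Afm on the transcribed side of Rassf6, and Cxcl5, Ppbp, Pf4, Cxcl3, Cxcl15, Gm24322, Cxcl1, Gm22816, Cxcl2, Mthfd2l and Areg on the side of its 5′ end. Only 9 passed the filter on low counts, and 4 had a mean of at least 1 CPM over the samples.

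Of the 9 neighbours tested, 8 had a log2 fold change below 0 with Tβ-MCA, where the median of all genes tested was 0.00. Some of the 8 had few reads, such as Gm9958 with 6 to 20 and Ppbp with 2 to 22 per sample. Cxcl2, a neutrophil-attracting chemokine, had 40.9, 68.6 and 57.9 CPM with PBS and 9.12, 20.2 and 34.6 CPM with Tβ-MCA, a log2 fold change of -1.38 (adjusted p = 0.093). Ankrd17 had -0.12 with an adjusted p of 0.305, Pf4 had -0.43 with 0.720 and Mthfd2l had 0.60 with 0.265. Cxcl1, at a mean of 0.622 CPM and chosen after its values were seen, fell with a log2 fold change of -1.43 and an adjusted p of 0.048. It was the one neighbour of the 9 tested that passed the test, where 7.62% of all genes passed. Cxcl1 had only 10 to 42 reads per sample, and TCA replicate 3 and Tβ-MCA replicate 3 each had 10. With GCA against PBS its log2 fold change was -1.24, with an adjusted p of 0.999 by edgeR (0.008 unadjusted). Whether its call held in other fits is not given here.

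**Figure D4:**
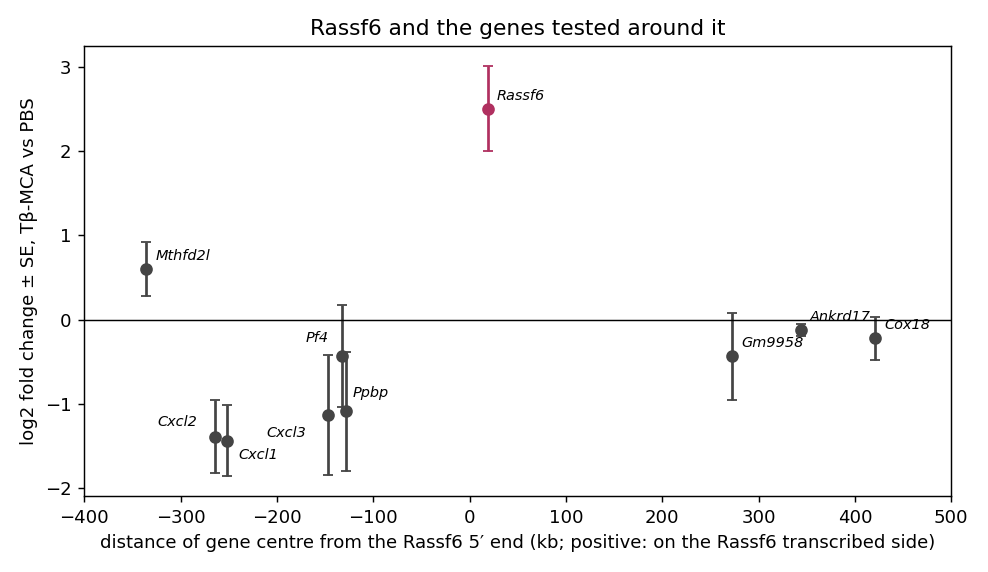
Log2 fold change with Tβ-MCA against PBS (y axis, ± SE) of Rassf6 and the 9 tested genes around it, by the distance of the gene centre from the 5′ end of Rassf6 in kb. Rassf6 stands at 2.50, and the chemokine genes on the negative side lie below 0.

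Genes with a pattern like that of Rassf6 were ranked by Pearson's r of log2 CPM over the 12 samples. The 5 highest were Bri3 with 0.98, 1810043G02Rik with 0.98, Gm13212 with 0.98, Tns1 with 0.98 and Bhlhe40 with 0.98. The samples share the difference between the treatments, so such values are descriptions. Bhlhe40, a transcriptional repressor of the circadian and hypoxia responses, had 59.3, 73.1 and 75.5 CPM with PBS, 74.5, 104 and 80.0 CPM with GCA and 134, 134 and 97.2 CPM with Tβ-MCA. Like Rassf6, it was highest in Tβ-MCA replicates 3 and 4 and was above the other GCA samples in GCA replicate 4.

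Among the other 8 genes, r with Rassf6 over the 12 samples was -0.92 for Stk4, -0.85 for Rassf5, 0.84 for Rassf7, -0.82 for Stk3, -0.81 for Rassf1, -0.57 for Rassf4, 0.30 for Rassf3 and -0.01 for Rassf2. Over the 9 samples without Tβ-MCA, among which GCA replicate 4 is far above the others in Rassf6, it was between -0.94 for Stk4 and 0.66 for Rassf7 and was 0.11 for Rassf4. The lowest r of all genes tested, looked up after the values were seen, belonged to Fgd4 with -0.98, and Ly6g, the marker used to describe the cells, was among the 5 lowest with -0.97. Ly6g had 21.4, 18.0 and 17.8 CPM with PBS and 7.54, 8.32 and 12.9 CPM with Tβ-MCA.

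**Figure D5:**
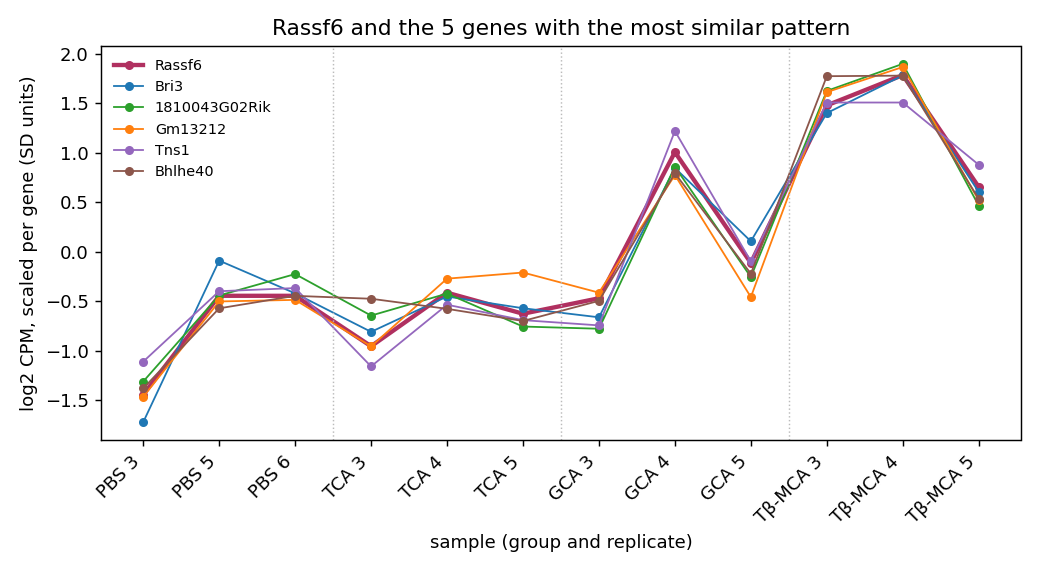
Log2 CPM of Rassf6 (thick line) and the 5 genes with the highest Pearson's r to it, scaled to SD units per gene (y axis), in the 12 samples (x axis). The 6 lines are highest in Tβ-MCA replicates 3 and 4 and rise above the other GCA samples in GCA replicate 4.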

How the data were processed

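RNA of 12 cultures of mouse neutrophils was sequenced from a stranded mRNA library. Per the submitters' processing notes, the tools were Trimmomatic 0.36, STAR 2.5.3a and featureCounts of Subread 1.5.1 with GRCm38 (mm10). The authors deposited raw counts per gene without normalization, and RPKM values by merged exon length and counted reads. The strand setting of the counting is not given in the sources used here.

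Counts were scaled by TMM and filtered with filterByExpr in edgeR 4.0.16 (R 4.3.3), which left 16761 genes. All 4 groups were fitted together, and comparisons used the quasi-likelihood test with Benjamini-Hochberg adjustment over all genes tested (threshold 0.05). The step was tested on simulated data. Log2 CPM used a prior count of 2. Plots used Python 3.11.15 and matplotlib 3.10.9. Alternatives were DESeq2 1.42.0, total library size, other filters, 2 groups alone, a replicate block, the study's cutoffs (p of 0.05, fold of 2) and each sample left out.

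The genes, lists and rules were chosen with earlier results of these data known. Named are the 9 genes, Rassf8 to Rassf10, list genes that passed against PBS (up to 4 per list), the neighbours within 500 kb and the 5 genes most like Rassf6. Between Tβ-MCA and GCA, same-numbered samples deviated together (r of 0.20, 0.22 and 0.24, from the data and not the labels), and a block did not change the count of 0 there.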

Additional observations from a re-analysis of the deposited data

How the results depend on the processing

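The 12 fits that each left out 1 sample called between 0 and 3 of the 8 genes other than Rassf6 with Tβ-MCA against PBS, where the count was 2, between 0 and 3 against TCA and between 0 and 1 against GCA, where it was 0. With Tβ-MCA against PBS, total library size, the 2 groups alone and the study's cutoffs each called 0, and no filter called 3, with Rassf4 added. Against TCA, DESeq2 called 2, no filter called 2, a filter of 10 counts called 1 and the replicate block called 3. Of the pathway genes, counted with Rassf8 and Rassf10, 4 were called with Tβ-MCA against PBS. DESeq2 called 9, no filter 8, the 2 groups alone 0 and the study's cutoffs 1, and leaving out 1 sample gave between 0 and 13. The share of all genes called also moved with the fit. With Tβ-MCA against PBS it was 7.62% with all samples, 8.09% without a filter and 18.0% without Tβ-MCA replicate 5. The shares of the other fits are not given here, so their counts cannot be set against them. RPKM values worked out again from counts and length were within 0.00013% of the deposited ones. The cause of these shifts was not tested. No comparison of the 8 genes with TCA or GCA against PBS, or of GCA with TCA, gained a call, while Rassf6 gained one with GCA against PBS and against TCA without a filter.

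No log2 fold change of the 9 genes with Tβ-MCA against PBS changed sign. In the other comparisons 14 small log2 fold changes did, of which the largest was 0.07, in 31 fits, and none of them was called. The value with all samples is in parentheses. For TCA against PBS, Rassf1 (-0.0448) had -0.0757 to 0.0037 without 1 sample, Rassf3 (0.0001) had -0.0021 with the filter of 10 counts and -0.0006 with the replicate block and -0.0017 with the 2 groups alone and -0.0574 to 0.0379 without 1 sample, Rassf4 (-0.0115) had 0.0335 with the replicate block and -0.0935 to 0.1015 without 1 sample, Rassf5 (-0.0105) had 0.0351 with the replicate block and -0.0356 to 0.0142 without 1 sample, Rassf6 (0.0739) had -0.1065 with the replicate block and -0.2338 to 0.2621 without 1 sample, Stk4 (-0.0212) had -0.0401 to 0.0029 without 1 sample. For GCA against TCA, Rassf2 (-0.0177) had -0.0427 to 0.0299 without 1 sample, Rassf4 (-0.0614) had -0.1747 to 0.0207 without 1 sample, Stk3 (0.0288) had -0.0245 to 0.0919 without 1 sample. For Tβ-MCA against TCA, Rassf2 (-0.0236) had 0.0214 with total library size and -0.0494 to 0.0237 without 1 sample. For Tβ-MCA against GCA, Rassf2 (-0.0059) had 0.0283 with total library size and -0.0287 to 0.0200 without 1 sample, Rassf3 (0.0230) had -0.0378 to 0.0696 without 1 sample, Stk4 (-0.0259) had 0.0082 with total library size. For GCA against PBS, Rassf7 (0.0371) had -0.1272 with the replicate block and -0.1036 to 0.1800 without 1 sample.

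Same-numbered samples correlated in their deviations from the group means with r from 0.060 to 0.33 over 15 pairs, with a mean of 0.19 and 12 of them over 0.1. The 39 pairs with different numbers had r from -0.27 to 0.15, with a mean of -0.07 and 7 of them over 0.1, so the ranges overlapped. PBS shares only 2 numbers with each bile acid. The replicate block left Rassf1 and Rassf5 called with Tβ-MCA against PBS, with adjusted p of 0.030 and 0.047, and changed no count of the 8 genes other than that against TCA. Low counts limit Rassf6, which had 19 to 66 reads in 8 of the 9 PBS, TCA and GCA samples.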
